A study of Mus musculus with 12 samples.

Results

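The SLC25 family, the solute carriers of the mitochondrial inner membrane, was followed through 12 whole-kidney RNA-seq libraries of mice that had or lacked the clock gene Arntl in their renal tubules. Members were all protein-coding genes whose symbol begins with Slc25a and whose mean expression over the 12 libraries was at least 0.5 CPM, read counts scaled to a common library size. Genes of the family that carry other symbols, such as the uncoupling protein genes Ucp1, Ucp2 and Ucp3, are outside this rule. This rule kept 41 of the 47 Slc25a genes among 38924 gene IDs, and all 41 entered the test. At the threshold, Slc25a47 was just inside at 1.10 CPM and Slc25a43 was just outside at 0.301 CPM. The other 5 genes left out were Slc25a2 at 0.151 CPM, Slc25a31 at 0.0495 CPM, Slc25a18 at 0.0431 CPM, Slc25a41 at 0.0124 CPM and Slc25a54, which had no read in any library.

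Arntl encodes BMAL1, a transcription factor of the circadian clock. The knockout (KO) animals were Bmal1lox/lox/Pax8-rtTA/LC1 mice 8 weeks old that were given doxycycline (2 mg/ml) to drink over 2 weeks, and the wild-type (WT) animals were their littermates. Both were on the C57BL/6J background, were fed standard chow without restriction and were kept in a cycle of 12 hours light and 12 hours dark. Kidneys were taken at Zeitgeber time 4 (ZT4), in the light, and at ZT16, in the dark, giving 4 groups of 3 libraries. The labels do not say whether the WT mice received doxycycline, how old the mice were when killed, which exons the lox sites flank, or whether each library came from its own animal. The p-values therefore measure the spread between libraries, which may be in part technical. Cre is driven in cells that use the Pax8 promoter, so cells that do not use it, such as those of vessels and stroma, should keep the gene. In which cells it was deleted was not tested.

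Mitochondrial carriers are small proteins that move metabolites across the otherwise tight inner membrane, usually by exchanging one solute for another. Each links a pathway of the cytosol with one of the matrix: ADP/ATP and phosphate carriers serve ATP synthesis, the carnitine/acylcarnitine carrier brings in fatty acids for oxidation, aspartate/glutamate carriers move reducing equivalents, and others deliver cofactors. Tubule cells of the kidney, above all those of the proximal tubule, are rich in mitochondria and draw much of their energy from fatty acids. In bulk tissue, fewer cells of a type and less RNA per cell cannot be told apart.

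Gene counts summed to between 25628887 and 38043491 per library. Arntl itself was at 20.01, 15.26 and 13.82 CPM in WT and 15.95, 14.39 and 16.2 CPM in KO at ZT4, and at 10.52, 8.63 and 11.03 CPM in WT and 12.28, 13.36 and 15.01 CPM in KO at ZT16. The genotypes thus overlapped at ZT4, and at ZT16 every KO library was above every WT library. Total counts over the gene therefore do not check the genotype labels. Whether transcripts without the deleted exons were counted was not tested. KO ZT16 replicate 2 stood apart from its group: 7 of the 41 members differed more than 1.5-fold from the mean of its 2 replicates, against 0 to 2 members in the other 11 libraries. Genes of the mitochondrial genome took 22.3% of its counts, against 14.1% and 14.0% in the other KO ZT16 libraries. In the remaining groups this share ran from 16.3% to 18.0% (WT ZT4), from 18.7% to 22.4% (WT ZT16) and from 12.6% to 12.8% (KO ZT4). Its summed level of 6 fat cell markers was 144.7 CPM, against 43.0 to 83.0 CPM elsewhere. Results are therefore given with and without this library. The part of these shares in the results below was not tested.

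The promoters of the members that the results turn on are shown first, each running from 250 bases before to 50 bases after a start site of RefSeq on GRCm38.p6, written 5′ to 3′ on the strand of the gene. Promoters were found for 32 of the 41 members, 42 promoters in all. The first 3 belong to the members that fell in KO at both times, encoding the carnitine/acylcarnitine carrier, a coenzyme A carrier and a choline carrier.
Slc25a20 chr9:108661886-108662185 (+ strand): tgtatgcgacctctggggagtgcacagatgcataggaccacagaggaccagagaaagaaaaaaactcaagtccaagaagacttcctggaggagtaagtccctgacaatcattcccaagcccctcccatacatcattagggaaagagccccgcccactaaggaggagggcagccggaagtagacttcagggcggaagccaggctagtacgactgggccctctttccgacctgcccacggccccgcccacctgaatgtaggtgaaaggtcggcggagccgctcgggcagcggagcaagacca
Slc25a42 chr8:70212232-70212531 (- strand): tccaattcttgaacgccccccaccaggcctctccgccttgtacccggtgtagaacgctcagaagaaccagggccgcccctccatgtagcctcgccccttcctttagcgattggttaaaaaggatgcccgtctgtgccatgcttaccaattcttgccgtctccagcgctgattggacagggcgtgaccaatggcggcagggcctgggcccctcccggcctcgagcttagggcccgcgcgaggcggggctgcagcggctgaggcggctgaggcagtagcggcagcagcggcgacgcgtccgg
Slc25a48 chr13:56438105-56438404 (+ strand): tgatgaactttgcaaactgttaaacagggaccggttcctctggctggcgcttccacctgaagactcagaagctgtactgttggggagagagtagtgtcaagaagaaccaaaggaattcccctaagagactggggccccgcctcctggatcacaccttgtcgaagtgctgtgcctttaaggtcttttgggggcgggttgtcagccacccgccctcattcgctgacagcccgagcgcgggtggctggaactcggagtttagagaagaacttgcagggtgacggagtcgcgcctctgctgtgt
None of these 3 windows holds the canonical E-box CACGTG, the sequence that BMAL1 binds with its partner CLOCK, nor the variant CACGTT, the D-box TTATGTAA, the cAMP response element TGACGTCA or the DR1 repeat of nuclear receptor half-sites. Each motif was searched on both strands, and the absence of a match says only that these letters are not in this window. The next 2 promoters belong to members that fell in KO at ZT16, the aspartate/glutamate carrier citrin and a pyrimidine nucleotide carrier, and capitals mark their E-boxes.
Slc25a13 chr6:6217124-6217423 (- strand): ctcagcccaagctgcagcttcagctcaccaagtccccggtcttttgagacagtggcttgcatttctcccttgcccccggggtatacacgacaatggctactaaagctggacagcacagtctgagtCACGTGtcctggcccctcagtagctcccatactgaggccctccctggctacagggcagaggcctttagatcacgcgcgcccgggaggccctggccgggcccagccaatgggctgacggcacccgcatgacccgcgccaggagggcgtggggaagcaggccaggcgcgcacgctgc
Slc25a33 chr4:149774218-149774517 (- strand): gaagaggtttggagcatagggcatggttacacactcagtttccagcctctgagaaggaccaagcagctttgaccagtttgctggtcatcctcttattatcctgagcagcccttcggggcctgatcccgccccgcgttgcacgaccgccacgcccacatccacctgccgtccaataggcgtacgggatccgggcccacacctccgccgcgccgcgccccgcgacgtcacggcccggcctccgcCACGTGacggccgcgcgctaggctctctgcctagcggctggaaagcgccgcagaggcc
The E-box lies at bases -125 to -120 from the start site of Slc25a13 and at bases -8 to -3 from that of Slc25a33. CACGTG was present in 7 of the 42 member promoters (16.7%), in 6 genes, and in 7.15% of all 32851 promoters. The other 4 genes were Slc25a15, which rose in KO, and Slc25a1, Slc25a14 and Slc25a36, which were called in no comparison between the genotypes over all 12 libraries. The last promoter is the one of the 3 of Slc25a25, the member with the largest difference between the times, that holds a cAMP response element, in capitals at bases -150 to -143.
Slc25a25 chr2:32424017-32424316 (- strand): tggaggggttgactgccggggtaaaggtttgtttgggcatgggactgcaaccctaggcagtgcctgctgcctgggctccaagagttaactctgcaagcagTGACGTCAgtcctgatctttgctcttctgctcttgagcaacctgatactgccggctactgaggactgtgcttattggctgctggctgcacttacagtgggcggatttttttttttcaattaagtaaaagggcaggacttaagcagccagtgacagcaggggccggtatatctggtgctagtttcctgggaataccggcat
TGACGTCA was present in 2 member promoters (4.76%), those of Slc25a25 and Slc25a36, and in 1.79% of all promoters. CACGTT was present in 4.76% of member promoters, in Slc25a30 and Slc25a28, and in 4.68% of all. The D-box was in no member promoter and in 0.938% of all, and the DR1 repeat was in none and in 0.0396%. A match is a description of the letters and not a site shown to be bound.

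Per kilobase of exons, carriers of adenine nucleotides and phosphate had the largest share of the family's level among the 8 substrate groups in each of the 12 libraries. Their 6 members took a median of 51.5% of the summed level of the family (47.8% to 56.3% over the 12 libraries). The 12 carriers of cofactors took a median of 20.5%, the 4 of carboxylates 15.1% and the 7 of amino acids 7.39%. The cofactor group as drawn here also holds the pyrimidine nucleotide carriers Slc25a33 and Slc25a36 and the choline carrier Slc25a48. The 6 members of unsettled substrate took a median of 2.91%, the 3 carriers close to uncoupling proteins 1.06%, the 2 iron carriers 0.699% and the single carnitine carrier 0.617%.

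Slc25a5, which encodes the ADP/ATP carrier ANT2, had the highest mean level at 490.7 CPM per kilobase. It was followed by Slc25a4, encoding the ADP/ATP carrier ANT1, at 153.8, by the glutathione carrier gene Slc25a39 at 144.1 and by the phosphate carrier gene Slc25a3 at 137.7 CPM per kilobase. These 4 genes held 56.2% to 62.3% of the family's level per kilobase. Next came the dicarboxylate carrier gene Slc25a10 at 106.6 and the oxoglutarate carrier gene Slc25a11 at 86.9 CPM per kilobase. The lowest member was Slc25a53 at 0.329 CPM per kilobase.

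Slc25a4 and Slc25a5 are the pair that exchanges ADP for ATP. Slc25a5 was at 823.1, 800.8 and 703.8 CPM in WT and 599.6, 569.5 and 613.0 CPM in KO at ZT4. At ZT16 it was at 1041, 954.9 and 1129 CPM in WT and 1010, 727.2 and 719.6 CPM in KO. Every KO library was below every WT library at ZT4, and at ZT16 the groups overlapped through KO replicate 2. Slc25a4 was at 374.9, 339.4 and 339.6 CPM in WT and 351.2, 306.6 and 323.9 CPM in KO at ZT4, and at 398.2, 381.0 and 371.3 CPM in WT and 430.3, 379.8 and 346.4 CPM in KO at ZT16, with overlapping genotypes at both times. Slc25a5 has a copy without introns elsewhere in the genome and close relatives in sequence, so its values are uncertain to the extent that reads were shared.

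**Figure D1:**
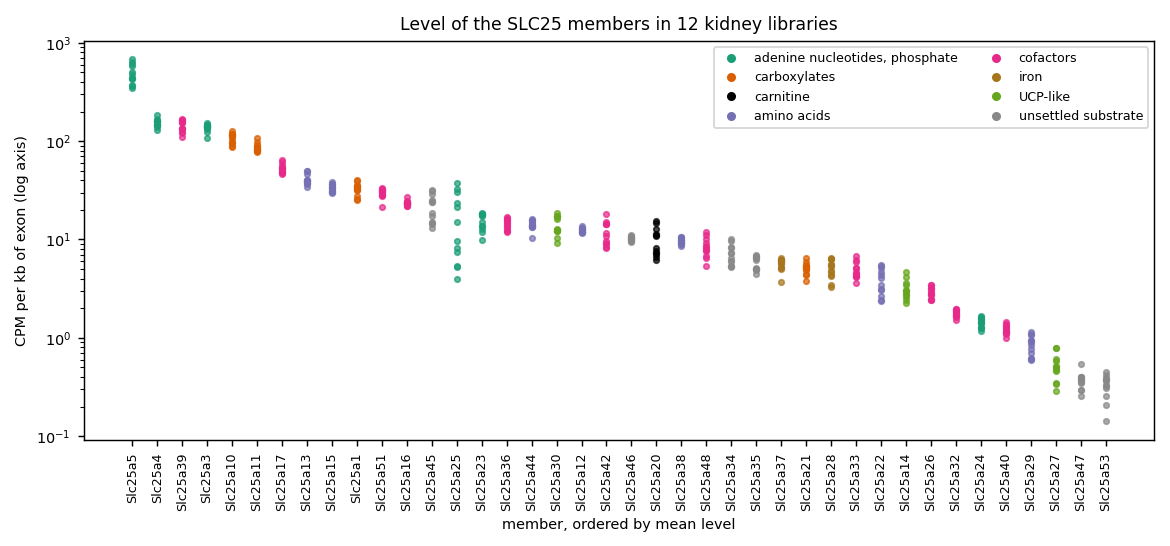
Level of 40 of the 41 members in CPM per kilobase of exons on a log10 axis, with 1 point for each of the 12 libraries, members ordered by mean level and colours for the substrate group. Slc25a5 has the highest mean, at 490.7, and Slc25a53 the lowest, at 0.329 CPM per kilobase.

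Some genes of the family lie beside each other in the genome, and 3 of the genes left out of the members are neighbours of members with far higher levels. Slc25a43 (chromosome X, 36743659 to 36777202 of GRCm38), at 0.169 CPM per kilobase, ends 18448 bases before Slc25a5, at 490.7. Slc25a41, at 0.00935 CPM per kilobase, lies 2056 bases from Slc25a23 on chromosome 17, at 15.5. Slc25a54, with no reads, lies 6461 bases from Slc25a24 on chromosome 3, at 1.43 CPM per kilobase. The members Slc25a29 and Slc25a47 start 162 bases apart in opposite directions on chromosome 12, and both were low, at 0.851 and 0.368 CPM per kilobase.

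The genotypes were compared first in the light. At ZT4, 3 members were lower in KO and none was higher: the carnitine/acylcarnitine carrier Slc25a20, the coenzyme A carrier Slc25a42 and the choline carrier Slc25a48. This is 7.32% of the members, against 3.29% of all 16150 genes (1.63% higher and 1.66% lower) called in this comparison by edgeR's quasi-likelihood test at a Benjamini-Hochberg adjusted p under 0.05. The median log2 fold change was -0.07 over the members and 0.00 over all genes. The libraries of the groups did not overlap for 17 members (41.5%), against 37.7% of all genes.

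At ZT16, 7 members were lower in KO and none was higher: the same 3, the pyrimidine nucleotide carrier Slc25a33, the aspartate/glutamate carrier Slc25a13, Slc25a34, whose substrate is unsettled, and the glutathione carrier Slc25a39. This is 17.1% of the members, against 4.03% of all genes (2.07% higher and 1.96% lower). The median was -0.07 over the members and 0.02 over all genes, and 12 members (29.3%) did not overlap between the groups, against 15.9% of all genes. Averaged over both times, 9 members were lower and 1 was higher, 24.4% of the members against 11.4% of all genes (6.04% higher and 5.31% lower). With library totals in place of TMM scaling, the median over all genes moved to 0.18 at ZT4 and 0.16 at ZT16 and that over the members to 0.11 and 0.06, above 0 but below that of all genes at both times. No member was then called at ZT4, where Slc25a20 had an adjusted p of 0.0721 and 2.45% of all genes were called (1.78% higher and 0.663% lower). At ZT16, 1 was lower, Slc25a20, and 1 was higher, the oxodicarboxylate carrier Slc25a21, with 2.93% of all genes called (2.05% higher and 0.885% lower). Averaged over both times, 3 were lower, Slc25a5, Slc25a20 and Slc25a42, and 3 higher, Slc25a15, Slc25a21 and Slc25a22, with 12.4% of all genes called (10.3% higher and 2.12% lower). With library totals, members called lower were therefore no more numerous than those called higher, whereas the genes called over all genes were mostly higher.

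More members, and more genes in all, were called without KO ZT16 replicate 2. Then 2 members were higher and 7 lower at ZT4, with 15.3% of all genes called (7.82% higher and 7.48% lower), and 3 were higher and 10 lower at ZT16, with 31.2% of all genes called (14.7% higher and 16.5% lower). Averaged over both times, 6 were higher and 15 lower, with 42.4% of all genes called (20.6% higher and 21.7% lower). In a fit of the 6 libraries of 1 time, 2 members were higher and 7 lower at ZT4, with 18.2% of all genes called (9.63% higher and 8.52% lower), and 1, Slc25a20, was lower at ZT16, with 1.28% of all genes called (0.628% higher and 0.654% lower).

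Slc25a20 imports acylcarnitines in exchange for free carnitine and is the single carnitine carrier of the family. It was at 55.6, 52.0 and 53.6 CPM in WT and 34.7, 32.0 and 29.9 CPM in KO at ZT4, and at 74.2, 71.2 and 62.5 CPM in WT and 35.2, 39.8 and 36.7 CPM in KO at ZT16. The highest KO library, at ZT16, was below the lowest WT library, at ZT4. The group means were 53.7 ± 1.79 and 32.2 ± 2.39 CPM at ZT4 and 69.3 ± 6.10 and 37.2 ± 2.34 CPM at ZT16 (SD, n = 3 libraries each). The log2 fold change averaged over both times was -0.82 ± 0.06 (SE, edgeR adjusted p = 5.38e-06). Its call in KO held in the fits that left out each library in turn, at either time and averaged.

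Slc25a20 works with enzymes and carriers that were also measured. Of 7 listed partners of the carnitine shuttle, 4 were lower in KO at both times and none was higher. Over all genes, 1.66% were called lower at ZT4 and 1.96% at ZT16. The median log2 fold change of the 7 was -0.47 at ZT4 and -0.42 at ZT16. Slc22a5, the carnitine transporter of the plasma membrane, was at 225.1, 204.7 and 224.8 CPM in WT and 126.7, 119.9 and 115.1 CPM in KO at ZT4, a log2 fold change of -0.86 ± 0.09 (SE, edgeR adjusted p = 0.000286). At ZT16 it was at 258.2, 277.3 and 294.1 CPM in WT and 149.9, 141.3 and 120.6 CPM in KO (-1.01 ± 0.09, SE, edgeR adjusted p = 6.64e-05), and the genotypes overlapped at neither time. Cpt2, the carnitine palmitoyltransferase of the inner membrane, changed by -0.57 ± 0.06 at ZT4 and -0.56 ± 0.06 at ZT16 (SE, edgeR adjusted p = 0.000390 and 0.000324). Cpt1a, its liver-type counterpart of the outer membrane, changed by -0.44 ± 0.08 and -0.50 ± 0.08 (SE, edgeR adjusted p = 0.0130 and 0.00414). The other one called was Crat, carnitine acetyltransferase, at -0.47 ± 0.08 and -0.42 ± 0.08 (SE, edgeR adjusted p = 0.00738 and 0.0120). Of the 7, 5 were lower at each time without KO ZT16 replicate 2. That fit called 15.3% of all genes at ZT4 and 31.2% at ZT16.

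Slc25a42 carries coenzyme A into the matrix in exchange for adenine nucleotides. It was at 86.3, 70.0 and 85.3 CPM in WT and 48.7, 54.3 and 55.2 CPM in KO at ZT4, and at 109.4, 87.0 and 91.1 CPM in WT and 50.5, 57.6 and 64.8 CPM in KO at ZT16. Every KO library of either time was below every WT library of either time. The log2 fold change was -0.61 ± 0.12 at ZT4 (SE, edgeR adjusted p = 0.0172) and -0.73 ± 0.12 at ZT16 (adjusted p = 0.00425). The ZT4 call was lost without any 1 of WT ZT4 replicates 1 and 5 or of the 3 KO ZT4 libraries, at adjusted p from 0.0589 to 0.0912, and the ZT16 call in the fit of the 6 libraries compared (adjusted p = 0.0628).

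Slc25a48 carries choline, the precursor of betaine, which tubule cells of the inner medulla hold as an osmolyte. It was at 34.2, 40.0 and 37.5 CPM in WT and 26.0, 26.5 and 27.2 CPM in KO at ZT4, and at 31.0, 28.8 and 28.3 CPM in WT and 18.3, 21.9 and 23.1 CPM in KO at ZT16. It too was lower in every KO library than in every WT library. The log2 fold changes were -0.49 ± 0.10 at ZT4 and -0.48 ± 0.10 at ZT16 (SE, edgeR adjusted p = 0.0172 and 0.0158). The first was lost without WT ZT4 replicate 3 or 5 or any 1 KO ZT4 library (adjusted p 0.0525 to 0.0853), and the second without WT ZT16 replicate 1 (adjusted p = 0.0614).

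Slc25a39, one of a pair of glutathione carriers, was at 452.5, 424.8 and 445.7 CPM in WT and 336.2, 378.1 and 344.2 CPM in KO at ZT4, and at 453.1, 466.0 and 431.2 CPM in WT and 306.9, 365.2 and 363.1 CPM in KO at ZT16. No KO library reached a WT library at either time. Averaged over both times it fell by 0.35 on the log2 scale (SE 0.06, edgeR adjusted p = 0.00306), a call kept without each library in turn. The ZT16 call alone (adjusted p = 0.0283) was lost without any 1 of KO ZT4 replicate 6, the 3 WT ZT16 libraries and KO ZT16 replicate 6, at adjusted p from 0.0513 to 0.0921. Its partner Slc25a40 had a mean of 1.22 CPM per kilobase, against 144.1 for Slc25a39, and was not called in either genotype comparison. The ratio of the CPM of Slc25a39 to that of Slc25a40 within a library, which needs no scaling between libraries, was 41.4 to 49.7 in the 6 WT libraries and 27.8 to 38.4 in the 6 KO libraries, without overlap.

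Slc25a34 was at 22.6, 19.3 and 21.6 CPM in WT and 14.5, 15.96 and 14.4 CPM in KO at ZT4, and at 27.2, 25.6 and 19.5 CPM in WT and 13.9, 17.4 and 16.02 CPM in KO at ZT16. It completes the 5 members whose 6 KO libraries were all below the 6 WT libraries, Slc25a20, Slc25a34, Slc25a39, Slc25a42 and Slc25a48, which is 12.2% of the members against 1.76% of all genes lower in this way and 3.62% without overlap in either direction. Its ZT16 log2 fold change was -0.61 ± 0.13 (SE, edgeR adjusted p = 0.0196), and that call was lost without KO ZT16 replicate 6 or either of WT ZT16 replicates 1 and 3 (adjusted p 0.0612 to 0.0817). No member was higher in all 6 KO libraries.

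**Figure D2:**
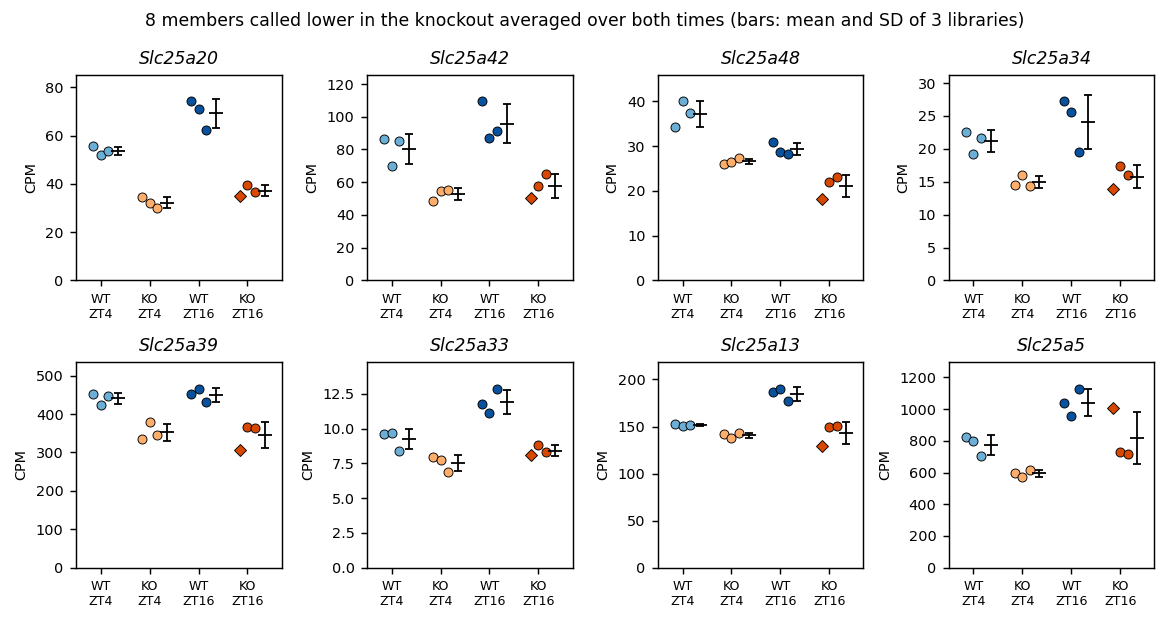
CPM of 8 members called lower in KO averaged over ZT4 and ZT16, with 1 point per library in each of the 4 groups, a diamond for KO ZT16 replicate 2, and bars for the mean and SD of 3 libraries. The KO points of Slc25a20, Slc25a42, Slc25a48, Slc25a39 and Slc25a34 lie below all WT points at both times.

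Slc25a33 carries pyrimidine nucleotides for mitochondrial DNA and RNA synthesis. It was at 9.59, 9.70 and 8.43 CPM in WT and 7.98, 7.77 and 6.88 CPM in KO at ZT4, and at 11.8, 11.2 and 12.9 CPM in WT and 8.11, 8.83 and 8.32 CPM in KO at ZT16. The KO libraries were lower at each time. The ZT16 log2 fold change was -0.50 ± 0.10 (SE, edgeR adjusted p = 0.0166), lost without KO ZT16 replicate 6 or WT ZT16 replicate 5 (adjusted p 0.0657 and 0.0722), and the averaged one of -0.40 ± 0.07 (adjusted p = 0.00448) was kept without each library. The other pyrimidine nucleotide carrier, Slc25a36, showed -0.04 ± 0.06 on average (adjusted p = 0.701). Slc25a33 shares 14.9% of its exonic bases with a predicted gene of the opposite strand, Gm13068, which had no reads.

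Slc25a13 encodes citrin, an aspartate/glutamate exchanger of the malate-aspartate shuttle. It was at 152.2, 150.5 and 151.5 CPM in WT and 142.0, 137.8 and 142.7 CPM in KO at ZT4, and at 186.7, 190.2 and 176.6 CPM in WT and 129.2, 149.2 and 150.8 CPM in KO at ZT16. The WT libraries at ZT16 stood above those of the other 3 groups. The ZT16 log2 fold change was -0.37 ± 0.08 (SE, edgeR adjusted p = 0.0168), lost without WT ZT16 replicate 1 or 3 (adjusted p 0.0552 and 0.0590). The ratio of Slc25a13 to its paralog Slc25a12, encoding aralar, was 2.03 to 2.17 in WT ZT16 and 1.30 to 1.73 in the other 9 libraries. Of 11 listed enzymes of the malate-aspartate and citrate shuttles, none was called between the genotypes at ZT4, at ZT16 or averaged, with medians of -0.02, -0.07 and -0.04. When KO ZT16 replicate 2 was left out, 1 was lower at ZT4, 2 were higher and 1 lower at ZT16, and 2 were higher and 3 lower on average. That fit called 15.3% of all genes at ZT4, 31.2% at ZT16 and 42.4% on average. Over the whole family, 9 of the 41 members had an unadjusted edgeR p under 0.05 at ZT4 and 13 at ZT16. Of all 16150 genes, 2955 and 2591 passed.

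Averaged over both times, 3 further members passed. Slc25a5 fell by 0.37 on the log2 scale (SE 0.09, edgeR adjusted p = 0.0229), a call kept without WT ZT4 replicate 5, KO ZT16 replicate 2 or either of WT ZT16 replicates 1 and 3 and lost without any 1 of the other 8 libraries (adjusted p 0.0505 to 0.0645). Without KO ZT16 replicate 2 its value was -0.46. Slc25a25, a calcium-regulated ATP-Mg/phosphate carrier, fell by 0.61 (SE 0.18, adjusted p = 0.0428), kept without WT ZT4 replicate 1, KO ZT4 replicate 6 or KO ZT16 replicate 2 or 6 and lost without any 1 of the other 8 libraries (adjusted p 0.0653 to 0.110). Slc25a15, the ornithine/citrulline carrier, was the single member called higher, at 0.20 ± 0.05 (SE, adjusted p = 0.0319). Its call was kept without WT ZT16 replicate 3 or KO ZT16 replicate 2 and lost without any 1 of the other 10 libraries, at adjusted p from 0.0511 to 0.0858. It was at 171.8 to 181.1 CPM in WT and 186.4 to 208.3 CPM in KO at ZT4, and at 166.1 to 189.6 CPM in WT and 203.0 to 216.7 CPM in KO at ZT16, with no overlap at either time.

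Slc25a15 serves the handling of ornithine and arginine. Of 11 listed partners in ornithine, arginine and glutamate metabolism 9 were tested. Averaged over both times 4 were higher and 3 lower in KO, with a median of -0.20 and with 11.4% of all genes called. Without KO ZT16 replicate 2 there were 4 of each, with 42.4% of all genes called. Among those higher was Glud1, glutamate dehydrogenase of the matrix, at 308.0 to 342.6 CPM in WT and 442.9 to 472.5 CPM in KO at ZT4 and at 325.7 to 348.8 CPM in WT and 427.5 to 480.8 CPM in KO at ZT16. Its averaged log2 fold change was 0.46 ± 0.05 (SE, edgeR adjusted p = 0.000175), without overlap at either time. The mitochondrial arginase gene Arg2 was higher too, and argininosuccinate lyase, Asl, was lower, at -0.43 ± 0.06 (SE, edgeR adjusted p = 0.000532).

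Slc25a22, which carries glutamate, and Slc25a23, an ATP-Mg/phosphate carrier, depended on a single library and were chosen for description after their values were seen. Slc25a22 was at 24.4, 18.8 and 20.9 CPM in WT and 27.7, 33.0 and 26.0 CPM in KO at ZT4, and at 16.1, 18.3 and 14.1 CPM in WT and 14.6, 32.1 and 31.0 CPM in KO at ZT16. KO ZT16 replicate 2 lay within the WT range and its 2 replicates above it. Over all libraries the ZT16 log2 fold change was 0.68 ± 0.24 (SE, edgeR adjusted p = 0.167), and without that library 0.95 (adjusted p = 0.000226). For Slc25a23, at 73.1, 67.2 and 63.7 CPM in WT ZT16 and 52.6, 97.4 and 96.4 CPM in KO ZT16, the values were 0.27 ± 0.19 (adjusted p = 0.524) and 0.50 (adjusted p = 0.00290).

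By substrate, the calls averaged over both times were 4 lower of 12 in the cofactor group and 2 lower of 6 adenine nucleotide and phosphate carriers. Of 7 amino acid carriers 1 was lower and 1 higher, of 6 of unsettled substrate 1 was lower, and the carnitine carrier was lower. Over all genes, 11.4% were called in this comparison. The lower members of the cofactor group were the glutathione carrier Slc25a39, the coenzyme A carrier Slc25a42, the choline carrier Slc25a48 and the pyrimidine nucleotide carrier Slc25a33. None of the 4 carboxylate carriers, the 2 iron carriers or the 3 carriers close to uncoupling proteins was called. Their averaged log2 fold changes lay between -0.07 and 0.21, between 0.06 and 0.10 and between -0.13 and 0.34. In the fit without KO ZT16 replicate 2, which called 42.4% of all genes on average, 6 members of the cofactor group were lower. There 1 adenine nucleotide and phosphate carrier was higher and 2 lower, 3 amino acid carriers were higher and 2 lower, and 2 carriers of unsettled substrate were lower. In the same fit 1 carboxylate carrier was higher (Slc25a1, 0.19) and 1 lower (Slc25a11, -0.14), and of the carriers close to uncoupling proteins Slc25a27 was higher (0.41) and Slc25a14 lower (-0.29).

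**Figure D3:**
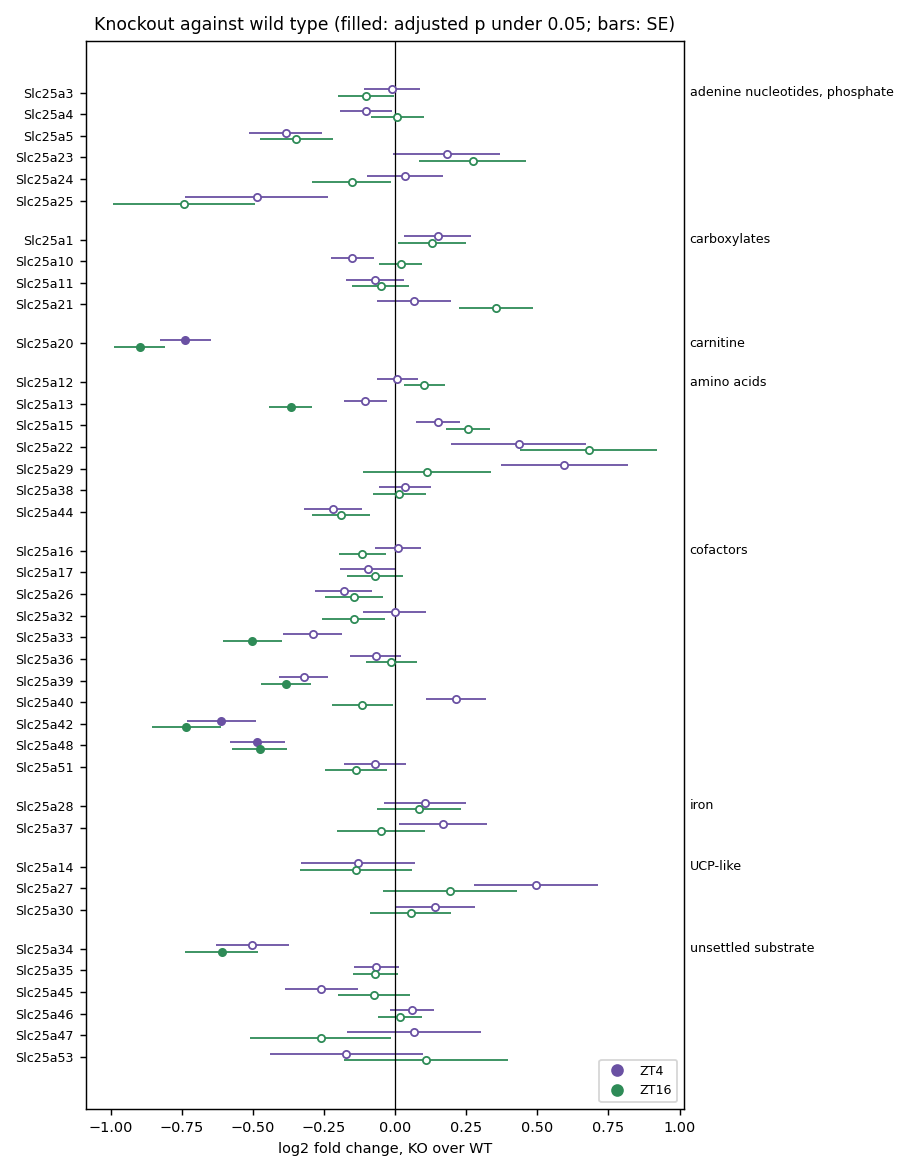
Log2 fold change of KO over WT for 40 of the 41 members at ZT4 and ZT16, grouped by substrate, with bars for the SE of the edgeR fit and filled points for an adjusted p under 0.05. Filled points lie to the left of 0, from -0.37 to -0.90.

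Genes that work beside the family in the mitochondrion were counted in the same way. Of all genes, 3.29% were called at ZT4, 4.03% at ZT16 and 11.4% on average. Without KO ZT16 replicate 2 these shares were 15.3%, 31.2% and 42.4%. Of 20 listed genes of ATP synthase and phosphorylation none was called at either time, and 1, the outer membrane channel gene Vdac2, was lower on average (-0.21 ± 0.06, SE, edgeR adjusted p = 0.0315). Without KO ZT16 replicate 2, 1 of these 20 was lower at ZT4, 12 at ZT16 and 14 on average. Of 16 listed genes of mitochondrial import and mass none was called at either time, and Timm9, a chaperone of carrier proteins on their way to the inner membrane, was lower on average (-0.33 ± 0.08, SE, adjusted p = 0.0206). With that library left out, 1 of these 16 was higher and 2 lower at ZT4, 6 were lower at ZT16, and 2 were higher and 7 lower on average. Another list held mitochondrial carriers and related proteins without the Slc25a symbol, among them the uncoupling proteins that the symbol rule leaves out. Of its 11 tested genes, Ucp2, itself an uncoupling protein gene, was lower at ZT16 (-1.08 ± 0.23, SE, adjusted p = 0.0217). There it was at 132.6, 106.2 and 84.8 CPM in WT and 32.1, 59.4 and 61.7 CPM in KO. With the same library left out, 1 of these 11 was higher and 1 lower at ZT4, and 2 were higher and 4 lower at ZT16. Of 11 iron and haem genes, Alas1, the first enzyme of haem synthesis, was lower at ZT4 and ZT16 (-0.59 ± 0.12 and -0.69 ± 0.12, SE, adjusted p = 0.0172 and 0.00472), and without KO ZT16 replicate 2, 1 of the 11 was higher and 2 lower at ZT4 and 1 higher and 5 lower at ZT16. Of 10 nuclear regulators of mitochondrial genes, 1 was called at each time, Ppard, which was higher, and without KO ZT16 replicate 2, 1 was higher at ZT4 and 3 at ZT16.

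Markers of cell types were read beside these differences. The shares of all genes called between the genotypes were 3.29% at ZT4, 4.03% at ZT16 and 11.4% on average. The summed level of 10 proximal tubule markers was 12860 to 13600 CPM in WT ZT4 and 12590 to 12780 in KO ZT4, without overlap, and 2 of the 10 were called lower in KO. The 10 did not move together. Slc5a2, at 560.3 to 621.8 CPM in WT and 623.6 to 663.1 CPM in KO at ZT4, was higher in KO. Lrp2, Slc4a4, Slc22a6, Slc7a13 and Aqp1 were lower in KO without overlap, and the others overlapped. At ZT16 the sum was 11870 to 12970 CPM in WT and 10670 to 12650 in KO. There replicate 2 was the low library, the other 2 lay within the WT range, and no marker was called. The sum of 5 thick ascending limb markers was 5559 to 6170 CPM in WT ZT4 and 4630 to 4775 in KO ZT4, with 1 of 5 called lower. At ZT16 it was 6508 to 7909 in WT and 5669 to 7348 in KO, with overlap. Most of the sum was Umod, at 4085 to 4593 CPM in WT and 2847 to 3027 CPM in KO at ZT4. Slc12a1, at 1177 to 1325 and 1412 to 1484 CPM, and Ptger3 were higher in KO at ZT4 without overlap. Kcnj1 and Cldn16 overlapped. The sum of 7 macrophage and leukocyte markers was 126.6 to 183.3 CPM in WT ZT4, 109.5 to 114.1 in KO ZT4, 122.6 to 136.4 in WT ZT16 and 94.4 to 112.9 in KO ZT16, lower in KO at both times, with 1 of 7 called at each. The 4 distal convoluted tubule markers went the other way, with sums of 899.9 to 1074 CPM in WT ZT4, 1124 to 1228 in KO ZT4, 941.3 to 1076 in WT ZT16 and 1123 to 1235 in KO ZT16. None of them was called at a single time and 1, Trpm6, was called higher on average. The 4 podocyte markers summed to 209.7 to 257.0 CPM in WT ZT4 and 261.3 to 274.4 in KO ZT4, and to 162.3 to 203.2 in WT ZT16 and 162.1 to 224.6 in KO ZT16. Without KO ZT16 replicate 2 the 2 KO libraries at ZT16, at 224.6 and 221.2 CPM, also lay above WT. The 5 endothelial markers summed to 335.1 to 357.9 CPM in WT ZT4, 304.0 to 323.2 in KO ZT4, 316.0 to 331.5 in WT ZT16 and 287.2 to 309.9 in KO ZT16. The 6 stromal and smooth muscle markers summed to 274.8 to 313.5 CPM in WT ZT4, 240.6 to 262.9 in KO ZT4, 280.8 to 295.8 in WT ZT16 and 216.2 to 315.9 in KO ZT16. The sums of 8 collecting duct markers (431.1 to 618.0 CPM over the 12 libraries) and 7 erythroid markers (203.1 to 523.9 CPM) overlapped between the genotypes at both times, at ZT16 through KO replicate 2 alone. The sums for proximal tubule, thick ascending limb, stroma, podocytes and fat (57.7 to 70.6 CPM in WT and 43.8 to 53.9 in KO at ZT4) separated the genotypes at ZT4, as did the share of mitochondrial transcripts given above. Those for macrophages, endothelium and distal convoluted tubule separated them at both times. At ZT16, KO replicate 2 alone gave the overlap for thick ascending limb, stroma, podocytes, fat and the mitochondrial share. The other 2 KO libraries lay above WT for podocytes and below WT for the rest. They were at 5915 and 5669 CPM for thick ascending limb and at 216.2 and 268.3 CPM for stroma. For fat they were at 43.0 and 63.2 CPM, against 72.2 to 83.0 CPM in WT. The part of these sums in the results was not tested. The sums of 5 adrenal and 6 muscle markers were 0.416 to 0.872 and 0.376 to 1.195 CPM, and the adrenal marker Cyp11b1 was at 0 in all 12 libraries.

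The second comparison asked which carriers differ between the dark and the light. In WT, 5 members were higher at ZT16 and none was lower: Slc25a25, Slc25a45, Slc25a35, Slc25a20 and Slc25a13. This is 12.2% of the members against 6.5% of all genes (2.87% higher and 3.63% lower), with a median log2 fold change of 0.02 over the members and -0.01 over all genes. In KO, 6 members were higher, among them Slc25a25, Slc25a45, Slc25a35, Slc25a10 and Slc25a5, and 3 were lower, Slc25a30, Slc25a28 and Slc25a48. This is 22.0% of the members against 10.5% of all genes (5.27% higher and 5.2% lower), with medians of -0.03 and -0.01. Without KO ZT16 replicate 2, 10 were higher and 9 lower in WT, with 33.5% of all genes called (17.5% higher and 15.9% lower), and 5 were higher and 2 lower in KO, with 8% of all genes called (3.85% higher and 4.15% lower). The groups did not overlap for 23 members in WT (56.1%, against 42.6% of all genes) and 19 in KO (46.3%, against 43.3%). With library totals, 2 were higher in WT, Slc25a25 and Slc25a45, and 2 lower, Slc25a26 and Slc25a36, with 4.33% of all genes called (0.947% higher and 3.38% lower). In KO the same 2 were then higher and Slc25a26, Slc25a30 and Slc25a36 lower, with 6.53% of all genes called (1.11% higher and 5.42% lower). With upper-quartile scaling, 4 were higher and 2 lower in WT, so the absence of lower members in WT depended on the scaling. In fits of the 6 libraries of 1 genotype, 7 members were higher and 6 lower in WT, with 22.8% of all genes called (11.6% higher and 11.2% lower), and none was called in KO, with 0.227% of all genes called (0.12% higher and 0.107% lower), where the members that had been called had adjusted p of at least 0.0536.

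Slc25a25 showed the largest change of the family. This carrier adjusts the pool of adenine nucleotides in the matrix under control of cytosolic calcium. It was at 42.5, 76.5 and 64.7 CPM in WT and 41.2, 31.3 and 58.7 CPM in KO at ZT4, and at 295.5, 257.0 and 238.0 CPM in WT and 117.0, 168.9 and 186.6 CPM in KO at ZT16. All ZT16 libraries were above all ZT4 libraries, and at ZT16 all WT libraries were above all KO libraries. The log2 fold change between the times was 2.11 ± 0.26 in WT and 1.85 ± 0.26 in KO (SE, edgeR adjusted p = 0.00117 and 0.00440), kept in both without each library in turn. The interaction was -0.26 ± 0.35 (SE, edgeR adjusted p = 0.9996). Its paralogs Slc25a24 and Slc25a23 had log2 fold changes of -0.08 ± 0.14 and -0.29 ± 0.19 in WT (SE, adjusted p = 0.714 and 0.309) and were not called.

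Slc25a45, whose substrate was counted as unsettled, was at 51.1, 48.2 and 40.9 CPM in WT and 39.4, 41.5 and 36.2 CPM in KO at ZT4, and at 79.7, 69.1 and 85.2 CPM in WT and 88.2, 66.8 and 66.9 CPM in KO at ZT16. The times did not overlap in either genotype. The log2 fold change was 0.74 ± 0.13 in WT and 0.92 ± 0.13 in KO (SE, edgeR adjusted p = 0.00811 and 0.00440), kept without each library in turn.

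Slc25a35 was at 19.1, 18.3 and 18.1 CPM in WT and 16.2, 18.4 and 18.4 CPM in KO at ZT4, and at 25.6, 25.0 and 24.1 CPM in WT and 22.5, 24.6 and 24.1 CPM in KO at ZT16. It was higher at ZT16 in every library, at 0.43 ± 0.08 in both genotypes (SE, edgeR adjusted p = 0.0111 in WT and 0.0131 in KO). The WT call was lost without WT ZT4 replicate 5 (adjusted p = 0.0610) and the KO call without KO ZT4 replicate 2 (adjusted p = 0.0518). Slc25a35 shares 31.3% of its exonic bases with Rangrf on the opposite strand, which was at 1.23 CPM and not called, and without a stated strand setting reads of the shared stretch cannot be told apart. Slc25a25, Slc25a35 and Slc25a45 were the members called in both genotypes.

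In WT, Slc25a20 rose by 0.37 ± 0.09 and Slc25a13 by 0.29 ± 0.08 on the log2 scale at ZT16 (SE, edgeR adjusted p = 0.0331 and 0.0446), and in KO their values were 0.21 ± 0.09 (adjusted p = 0.118) and 0.02 ± 0.08 (adjusted p = 0.844). The WT call of Slc25a20 was lost without any 1 of the WT ZT4 libraries, KO ZT4 replicate 4 and WT ZT16 replicates 1 and 3 (adjusted p 0.0554 to 0.122). That of Slc25a13 was kept without KO ZT16 replicate 2 or 6 and lost without any 1 of the other 10 libraries (adjusted p 0.0531 to 0.156). The difference between the genotypes in this change was not called for either gene. Of the carnitine shuttle partners 2 of 7 were higher at ZT16 in WT, Cpt2 and Slc22a5, and 1, Cpt2, in KO. Over all genes, 2.87% were called higher in WT and 5.27% in KO. Without KO ZT16 replicate 2, 4 were higher and 1 lower in WT and 1 higher in KO. That fit called 33.5% of all genes in WT and 8% in KO. Among the malate-aspartate partners Got1, the cytosolic aspartate aminotransferase, rose in both genotypes, by 0.36 ± 0.08 in WT and 0.41 ± 0.08 in KO (SE, edgeR adjusted p = 0.0289 and 0.0174).

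Slc25a10, which exchanges malate and succinate for phosphate, was at 327.9, 344.9 and 370.0 CPM in WT and 303.0, 329.4 and 306.9 CPM in KO at ZT4, and at 396.0, 404.5 and 409.5 CPM in WT and 393.8, 400.0 and 432.7 CPM in KO at ZT16. All ZT16 libraries were above all ZT4 libraries. The log2 fold change was 0.21 ± 0.08 in WT and 0.38 ± 0.08 in KO (SE, edgeR adjusted p = 0.0998 and 0.0146), and the KO call was lost without any 1 KO ZT4 library (adjusted p 0.0520 to 0.0700).

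Between the times, Slc25a5 rose by 0.46 ± 0.13 on the log2 scale in KO (SE, edgeR adjusted p = 0.0425) and had 0.43 ± 0.13 in WT (adjusted p = 0.0653). Its KO call was kept without WT ZT16 replicate 5 or KO ZT16 replicate 4 or 6 and lost without any 1 of the other 9 libraries (adjusted p 0.0507 to 0.145), and without KO ZT16 replicate 2 its KO change was 0.28.

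Slc25a30, the kidney mitochondrial carrier close to the uncoupling proteins, was at 79.0, 58.9 and 77.1 CPM in WT and 85.1, 73.7 and 78.4 CPM in KO at ZT4, and at 57.6, 41.7 and 55.4 CPM in WT and 47.1, 57.4 and 55.95 CPM in KO at ZT16. It was lower at ZT16 in every library. The log2 fold changes were -0.56 ± 0.14 in KO and -0.48 ± 0.14 in WT (SE, edgeR adjusted p = 0.0324 and 0.0633), and the KO call was lost without any 1 KO ZT4 library (adjusted p 0.0857 to 0.102). Slc25a28, mitoferrin-2, showed -0.53 ± 0.15 in KO and -0.51 ± 0.15 in WT (adjusted p = 0.0432 and 0.0600), and Slc25a48 showed -0.33 ± 0.10 and -0.34 ± 0.10 (adjusted p = 0.0487 and 0.0547). Both KO calls were lost without KO ZT16 replicate 2, at -0.38 and -0.25. That of Slc25a28 was kept without WT ZT4 or WT ZT16 replicate 5 or KO ZT16 replicate 4 or 6 and lost without any 1 of the other 8 libraries (adjusted p 0.0559 to 0.142). That of Slc25a48 was kept without KO ZT16 replicate 4 or 6 and lost without any 1 of the other 10 libraries (adjusted p 0.0549 to 0.139). Neither overlapped between the times in either genotype. Alas1, from the iron and haem list, rose at ZT16 by 1.47 ± 0.12 in WT and 1.37 ± 0.12 in KO (SE, edgeR adjusted p = 5.87e-05 and 0.000404).

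**Figure D4:**
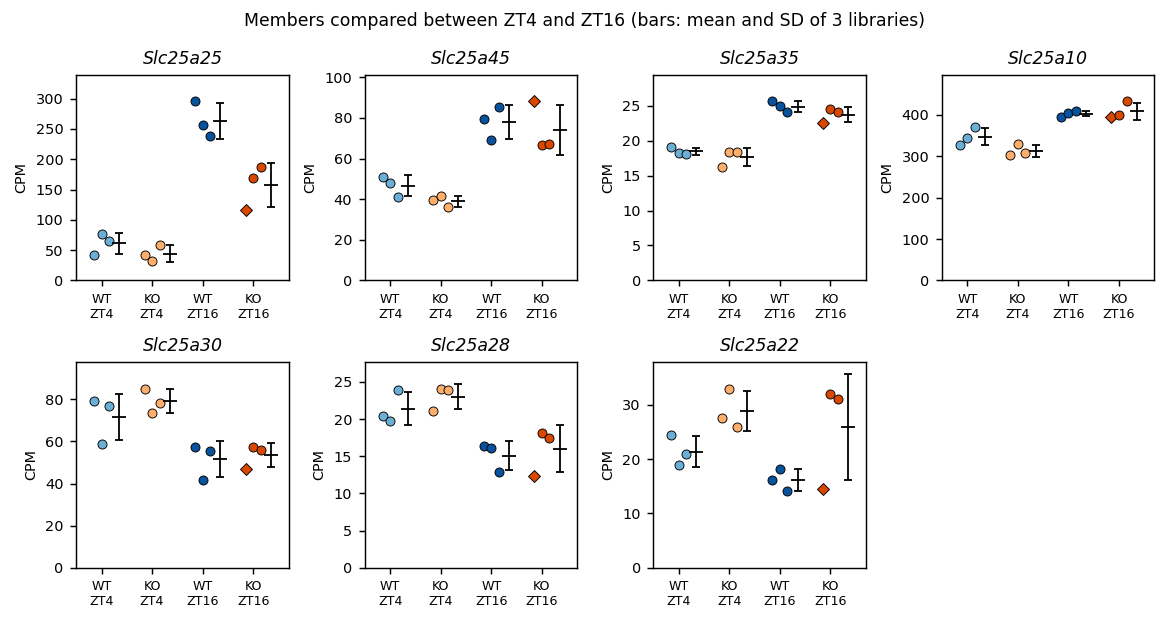
CPM of 7 members in the 4 groups, with 1 point per library, a diamond for KO ZT16 replicate 2, and bars for the mean and SD of 3 libraries. Slc25a25 and Slc25a45 are higher at ZT16 in both genotypes, Slc25a30 and Slc25a28 are lower, and Slc25a22 has its KO ZT16 diamond at 14.6 CPM, apart from 32.1 and 31.0 CPM.

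**Figure D5:**
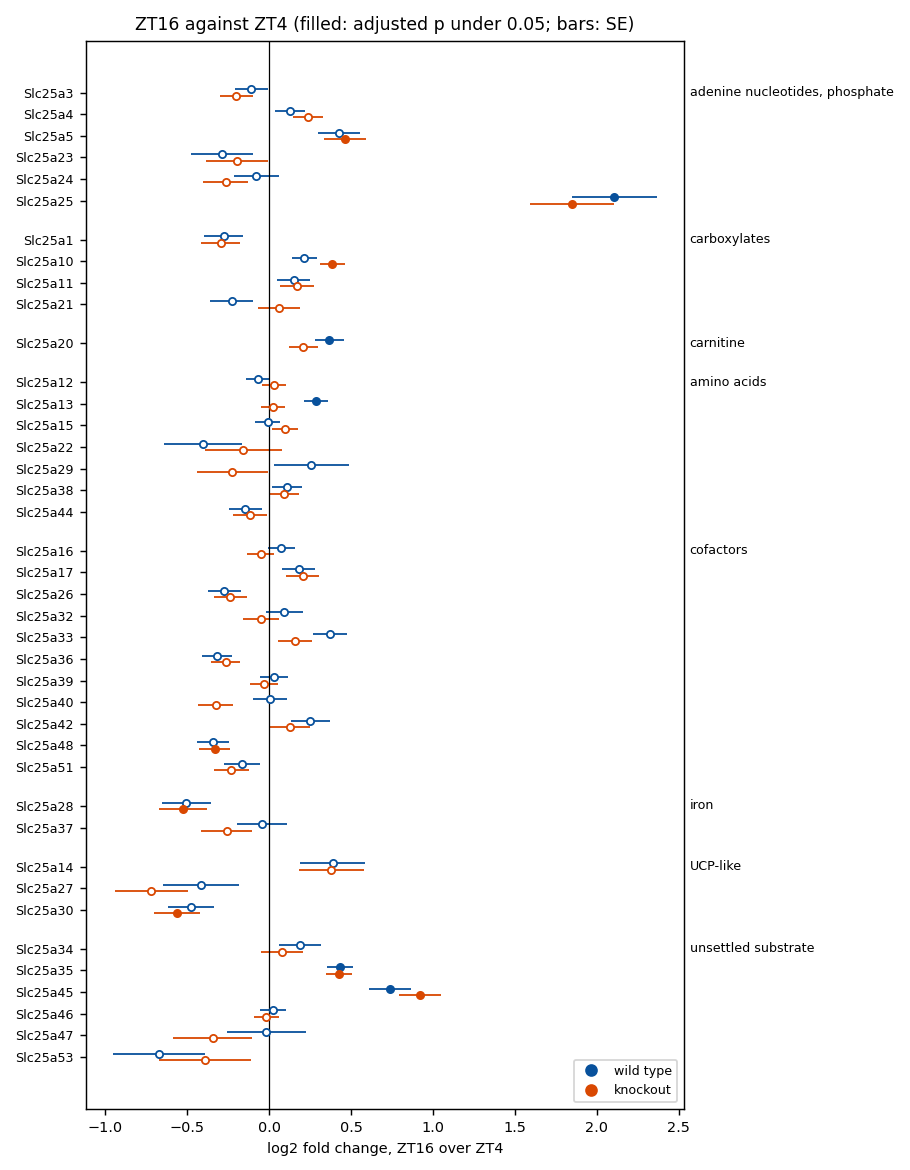
Log2 fold change of ZT16 over ZT4 for 40 of the 41 members in WT and KO, grouped by substrate, with bars for the SE of the edgeR fit and filled points for an adjusted p under 0.05. Slc25a25 lies farthest from 0, at 2.11 in WT and 1.85 in KO.

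The third comparison asked whether the difference between the times depended on the genotype. For no member was the interaction called, against 0.0186% of all genes (3 of 16150), and DESeq2 and limma voom called none either. At an unadjusted p under 0.05, 3 members passed, and 540 of all genes. Among them were Slc25a13 at -0.26 ± 0.11 (SE, n = 12 libraries, edgeR p = 0.0302) and Slc25a40 at -0.33 ± 0.15 (edgeR p = 0.0474), each with an adjusted p of 0.9996. Slc25a40 was at 9.11, 10.3 and 10.6 CPM in WT and 12.1, 11.6 and 11.1 CPM in KO at ZT4, and at 9.42, 11.01 and 9.61 CPM in WT and 8.35, 9.52 and 9.87 CPM in KO at ZT16, with the KO libraries at ZT4 above all others. Without KO ZT16 replicate 2, 4 members passed the unadjusted threshold and none was called, against 0.0489% of all genes. The median SE of the interaction over the members was 0.15 on the log2 scale, against 0.11 for a comparison within 1 time, so a difference between the genotypes in the change with time is less well resolved than either change.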

How the data were processed

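RNA was measured in 12 whole-kidney libraries, in 4 groups of 3. Per the labels, libraries were stranded mRNA libraries from 500 ng of total RNA. Per the submitters' processing notes, the deposited counts per gene came from reads trimmed with cutadapt 1.2.1, aligned to GRCm38 with TopHat2 2.0.9 and counted with HTSeq 0.5.4p3, and the authors used edgeR and limma in R 3.1.1. How ambiguous reads and strand were handled in counting, and which annotation release was used, is not given in the sources used here. Lines for unassigned reads stayed out of library sizes (no feature 3.50% to 5.96%, ambiguous 0.411% to 0.534%, not uniquely aligned 30.8% to 43.0% of a library). GENCODE M21 (GRCm38) gave symbols to 37607 of 38924 IDs and exonic lengths.

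Genes were filtered with filterByExpr (16150 kept), scaled by TMM and tested with the quasi-likelihood F test of edgeR 4.0.16 (R 4.3.3) in 1 fit of 12 libraries with 8 residual degrees of freedom. P-values were adjusted over all genes tested (Benjamini-Hochberg), with calls made at an adjusted p under 0.05. CPM are TMM-scaled. Alternatives were RLE, upper-quartile or no scaling between libraries, other filters, DESeq2 1.42.0, limma voom 3.58.1, an adjusted p under 0.01, an offset on length and GC content, the compared libraries alone, each library left out and a replicate block. The fit was tested on simulated data.

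Members, gene lists and motifs were chosen with earlier results of these data known. Values in every library are given for up to 6 called members per comparison by smallest adjusted p, the 2 members highest per kilobase and, where none was called, the 3 with the smallest p, except that 1 member, kept in the fits and counts, is not reported here. Per list, up to 3 genes are named by smallest adjusted p, and Crat was added after its values were seen. Replicates differed by more than sampling noise, with a chi-square per degree of freedom of 4.71 to 190.6 between libraries of a group.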

Additional observations from a re-analysis of the deposited data

How the results depend on the processing

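Of the 34 calls of members, none turned direction in 752 refits, 573 of which kept the call and 179 lost it. All 34 kept it with DESeq2, limma voom and a mean of at least 5 CPM, and 24 lost it with library totals. The number of members called was 3 at ZT4 between the genotypes, all lower, with 0 by library totals, 5 by DESeq2, 1 at an adjusted p under 0.01 and 7 with the length and GC offset, all lower, and 9 in the 6 libraries compared (2 higher). At ZT16 it was 7, all lower, with 2 by library totals (1 higher, 1 lower), 2 lower at an adjusted p under 0.01 and 1 lower in the libraries compared. There DESeq2 called 1 higher and 7 lower, and the length and GC offset 1 higher and 9 lower. Averaged over both times it was 10 (1 higher, 9 lower), with 6 by library totals (3 higher, 3 lower) and 6 at an adjusted p under 0.01, all lower. On average DESeq2 called 2 higher and 9 lower, and the offset 2 higher and 11 lower. Between the times it was 5 in WT, all higher, with 9 at a mean of at least 5 CPM (6 higher, 3 lower), 12 by DESeq2 (8 and 4), 2 higher at an adjusted p under 0.01, 11 with the offset (8 and 3) and 13 in the libraries compared (7 and 6), and the counts of 6 by upper-quartile scaling and 4 by library totals were split 4 and 2 and 2 and 2. In KO it was 9 (6 and 3), with 5 by library totals (2 and 3), 2 higher at an adjusted p under 0.01, 14 with the offset (8 and 6) and 0 in the libraries compared. DESeq2 called 7 higher and 6 lower in KO. Leaving out 1 library gave 1 to 9 at ZT4, 3 to 13 at ZT16, 7 to 21 averaged, 2 to 19 in WT and 3 to 12 in KO, with the highest count in the first 4 without KO ZT16 replicate 2. The interaction stayed at 0 in all of these. Except where a setting uses fewer libraries or a stricter threshold, the cause was not tested. The share of all genes called is given above for library totals, the libraries compared and the fit without KO ZT16 replicate 2. It was not counted for the other settings, so changes in their counts cannot be read as particular to the members.

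Replicate numbers are shared between times within a genotype. Deviations from the group means correlated at -0.266 to 0.0543 between libraries of the same number. The highest correlation with a library of another number ran from 0.0324 to 0.224. With 3 libraries a group, these values cannot tell whether samples of the same number share more than the number. With the replicate block, 2 members were called between the times in WT, 2 in KO and 0 for the interaction, and the share of all genes called was not counted. Membership stayed at 41 with library totals or with a minimum of 1 CPM, and its dependence on depth was not tested. The SE of a comparison within 1 time ranged from 0.07 to 0.29 on the log2 scale over the members, and the smallest called difference at ZT4 was -0.49.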
